A study of Homo sapiens with 6 samples.

Results

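The SWI/SNF (BAF) complexes were described here through the RNA of 30 subunit genes, out of 36532 genes measured. The members were chosen by gene symbol as known subunits of the BAF, PBAF and non-canonical BAF assemblies, and all 30 were found, each under 1 Ensembl gene identifier, with 341 transcripts in all. SWI/SNF complexes slide and evict nucleosomes with the energy of ATP. Each assembly holds 1 ATPase, SMARCA4 (BRG1) or SMARCA2 (BRM), a core, and subunits that define its kind: ARID1A or ARID1B for canonical BAF, ARID2, PBRM1, BRD7 and PHF10 for PBAF, and GLTSCR1 or GLTSCR1L with BRD9 for non-canonical BAF, which lacks SMARCB1. In neural development some subunits are exchanged, with ACTL6A, PHF10 and SS18 typical of dividing progenitors and ACTL6B, DPF1, DPF3 and SS18L1 typical of neurons. Loss of SMARCB1, rarely of SMARCA4, defines the atypical teratoid rhabdoid tumor (AT/RT), a malignant brain tumor of young children.

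The RNA came from 4 established lines of this tumor, numbered CHLA 02, 04, 05 and 06, grown without treatment in serum-free neural medium with EGF, basic FGF and B-27. CHLA 02 and CHLA 05 gave 1 library each, and CHLA 04 and CHLA 06 gave 2 technical replicates each, so that each line was 1 biological sample and no test between lines was possible. All groups shared the tumor type, and no line with intact or restored SMARCB1 was among them. The question that these samples can address is how the levels of the subunits differ between AT/RT lines. Values are TPM, the level of a transcript per length scaled to a common total in each library, summed over the transcripts of a gene, so that genes can be set side by side. Where 6 values are given without names, they are in the order CHLA 02, CHLA 04 replicates 1 and 2, CHLA 05, and CHLA 06 replicates 1 and 2. An error is the SD between technical replicates (n = 2), which does not cover the spread between cultures, and intervals are 95% Wilson intervals from recovered reads, which cover counting error only.

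The libraries held 10265899 to 20520229 recovered reads on transcripts, the fewest in CHLA 04 replicate 1. Pearson's r of log2(TPM + 2) over genes was 0.985 between the replicates of CHLA 04 and 0.993 between those of CHLA 06, and 0.837 to 0.954 between lines. CHLA 02 stood between CHLA 04 and CHLA 06. Of 5701 genes past 2-fold between CHLA 04 and CHLA 06, the CHLA 02 level lay between the other 2 lines for 88.4%, and the CHLA 05 level for 64.7%. For the 358 genes over 20 TPM and 16-fold higher in CHLA 04 than in CHLA 06 the share was 97.8% in CHLA 02 and 73.5% in CHLA 05. For the 305 genes that differed as much the other way it was 94.4% in CHLA 02 and 68.5% in CHLA 05. The reason was not tested, nor was whether the culture was the line its label names, so that CHLA 02 values are those of the library with that label. Markers of blood summed to at most 0.465 TPM and those of endothelium to at most 3.70 TPM. The neural progenitor markers (NES, SOX2, VIM, PAX6 and MSI1) summed to 4986 to 19478 TPM, nearly all of it VIM, and SOX2 was at most 4.03 TPM. VIM was highest in CHLA 06, whereas the other genes of this list were lowest there. MSI1 was at 8.23 TPM in CHLA 06 and at 109 to 272 TPM in the other lines. PAX6 was at 0.770 TPM in CHLA 06 and at 15.8 to 36.9 TPM in the other lines. The neuron markers summed to 327 to 1147 TPM, the oligodendrocyte lineage markers to 14.2 to 39.4 TPM and the astrocyte markers to 0.0601 to 209 TPM. The oligodendrocyte lineage markers did not share an order of lines. MBP was at 31.9 TPM in CHLA 02, 23.1 TPM in CHLA 06 and at most 0.267 TPM in CHLA 04 and CHLA 05. OLIG2 and PDGFRA were highest in CHLA 05, at 14.2 and 24.9 TPM. Of the markers of AT/RT subgroups, those of AT/RT-TYR summed to at most 6.13 TPM, with TYR and MLANA at 0 in every library. In bulk RNA, fewer cells with a transcript and less of it per cell cannot be told apart.

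Nearly all subunits had RNA in every line. Of 30 members, 26 were at 1 TPM or more in each of the 4 lines, against 33.4% of all genes, and 23 were at 10 TPM or more, against 23.4%. The 4 others were ACTL6B, BCL11B, DPF3 and BCL11A. The median level of the members was 54.7 TPM in CHLA 02, 66.2 TPM in CHLA 04, 63.2 TPM in CHLA 05 and 50.8 TPM in CHLA 06. By the mean over lines, the ATPase gene SMARCA4 ranked 1st with 190 TPM, followed by SMARCC2 with 156 TPM, ARID1A with 153 TPM and SMARCD1 with 139 TPM. This ranking counts all transcripts of a gene, and protein-coding ones held 45.0% to 52.6% of SMARCC2 TPM by library. SMARCB1 ranked 25 of 30 with 17.7 TPM. CHLA 06 was the lowest line for 16 members (not counting ACTL6B, at 0 in both CHLA 02 and CHLA 06), whereas it was the lowest for 37.6% of all genes at 1 TPM or more in a line. CHLA 02 was the highest line for 0 members, and for 11.2% of those genes. The median gene was 0.21 lower in CHLA 06 than in CHLA 04 on the log2(TPM + 1) scale, which median-ratio scaling between libraries brought to -0.01 and quantile normalization to -0.04. After these scalings CHLA 06 was the lowest line for 11 and 12 members, against 29.0% and 26.4% of genes.

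**Figure D1:**
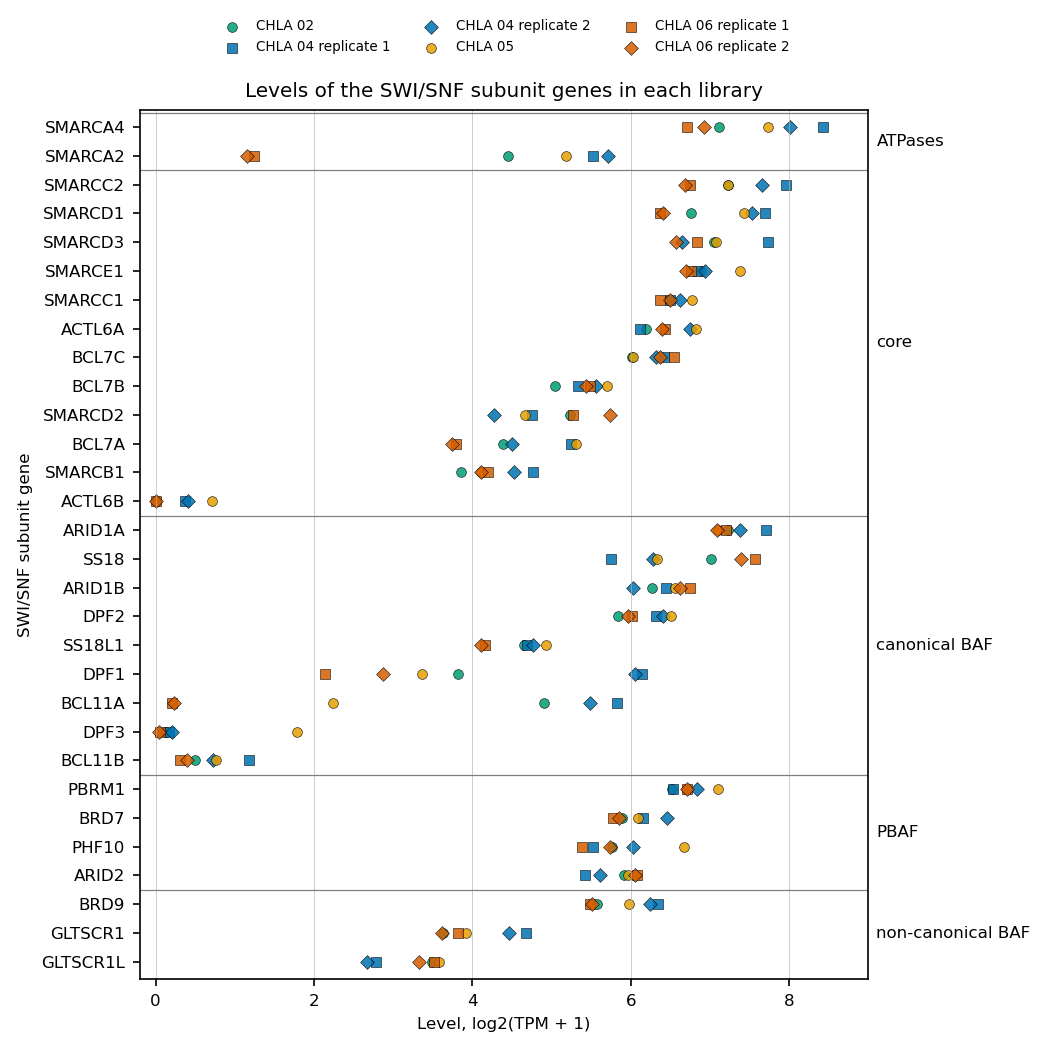
Level of each SWI/SNF subunit gene, as log2(TPM + 1) on the horizontal axis, in the 6 libraries (1 point a library, no error bars, squares and diamonds are technical replicates 1 and 2), grouped by module and ordered by the mean over lines. Most genes lie between 4 and 8 on this scale, and SMARCA2, BCL11A, DPF1 and DPF3 spread the most.

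A member was called different when log2(TPM + 1) of the highest and the lowest line differed by more than 1, that is past 2-fold, among genes at 1 TPM or more in a line. Of the 28 members tested, 10 were past it (35.7%), against 51.3% of all genes tested. They were BCL11A, SMARCA2, DPF1, DPF3, BCL7A, SS18, SMARCA4, SMARCD1, PHF10 and SMARCC2. The median difference on the log2(TPM + 1) scale was 0.80 for the members and 1.02 for all genes. Among the 23 members at 10 TPM or more in every line 6 were past 2-fold, and the share among all such genes was 30.7%. Just inside the threshold were SMARCC2 at 1.10 and PHF10 at 1.11, and just outside it were SMARCD2 at 0.99 and GLTSCR1 at 0.94. After either quantile normalization or median-ratio scaling 8 members were past it, with PHF10, SMARCC2 and SMARCD1 no longer called and SMARCD2 called. With the most abundant transcript of each gene DPF3 and SMARCC2 were not past it, and SMARCB1 and SMARCD2 were. Without CHLA 06 the count fell to 5 members, namely BCL11A, DPF1, DPF3, SMARCA2 and SMARCA4, against 39.5% of all genes. Without CHLA 02 the same 10 genes were past it. Between the technical replicates of CHLA 04, 1 member (SMARCD3) differed by more than 2-fold, against 6.17% of all genes. Between those of CHLA 06 no member did, against 1.61% of all genes.

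**Figure D2:**
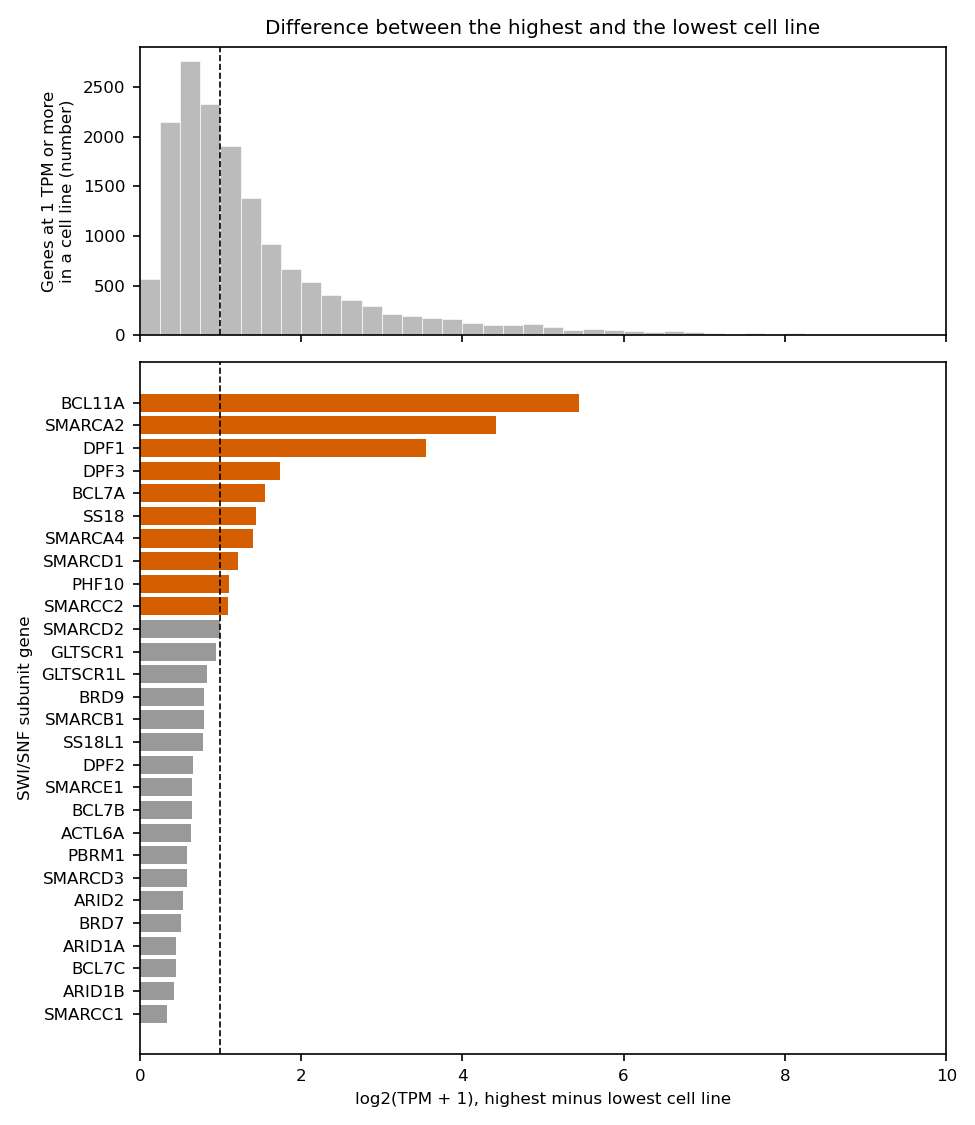
Difference in log2(TPM + 1) between the highest and the lowest of 4 cell lines, as a histogram over the 16035 genes tested (top, number of genes in bins of 0.25) and for each of the 28 subunit genes tested (bottom). The dashed line marks 2-fold, and the 10 members past it are in orange, led by BCL11A at 5.44 and SMARCA2 at 4.42.

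The pairs of lines differed in how many subunits stood apart. CHLA 06 and CHLA 04 differed past 2-fold at 8 members, 7 lower and 1 (SS18) higher in CHLA 06, against 35.6% of all genes. After either scaling these were 6 members, against 34.6% of all genes. BCL11A, DPF1, SMARCA2 and SMARCA4 were then lower and SS18 and SMARCD2 higher in CHLA 06. CHLA 06 and CHLA 05 differed at 7 members, 6 lower and 1 (SS18) higher in CHLA 06, against 31.3% of all genes. After quantile normalization or median-ratio scaling they were 6, against 30.6% and 30.7% of all genes. BCL11A, BCL7A, DPF3 and SMARCA2 were then lower and SS18 and SMARCD2 higher in CHLA 06. CHLA 06 and CHLA 02 differed at 3 members, BCL11A, DPF1 and SMARCA2, each lower in CHLA 06, against 12.6% of all genes. Of these, DPF1 was not past 2-fold after quantile normalization, although it was after median-ratio scaling. DPF1 was also not past it with the most abundant transcript, with the highest technical replicate or without CHLA 06 replicate 1. CHLA 04 exceeded CHLA 02 at 3 members, DPF1, SMARCA2 and SMARCA4, against 21.7% of all genes, and after either scaling SMARCA4 was not past 2-fold while SS18, lower in CHLA 04, was. CHLA 05 and CHLA 02 differed at 2 members, BCL11A lower and DPF3 higher in CHLA 05, against 24.8% of all genes. CHLA 05 and CHLA 04 differed at 3 members, BCL11A and DPF1 lower and DPF3 higher in CHLA 05, against 21.6% of all genes. These pairs share lines with each other, so they are not independent. The members' share, between 7.14% and 28.6%, was below that of all genes in each pair. It was slightly above it for the 3 pairs with CHLA 06 when genes of low level were kept (26.7% against 25.3% for CHLA 04), for CHLA 06 and CHLA 02 with a pseudocount of 2 (10.7% against 9.48%), and for CHLA 04 and CHLA 02 with the most abundant transcript (25.9% against 23.9%).

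SMARCB1 encodes the core subunit INI1 (SNF5), which contacts the nucleosome's acidic patch and whose loss defines the tumor. Its RNA was present in every library. The levels were 13.5, 26.2, 22.1, 16.3, 17.3 and 16.2 TPM, from 114, 118, 181, 114, 187 and 202 reads. By line this was 13.5 TPM in CHLA 02 (interval 11.2 to 16.2), 24.2 ± 2.84 TPM in CHLA 04, 16.3 TPM in CHLA 05 (interval 13.6 to 19.6) and 16.7 ± 0.742 TPM in CHLA 06. CHLA 04 was highest, with no overlap of its replicate values with the other lines, and the intervals of CHLA 02 and CHLA 05 overlapped. The interval of CHLA 04 replicate 2 (19.1 to 25.6) overlapped those of CHLA 05 and of CHLA 06 replicate 1 (15.0 to 19.9). The difference between the highest and the lowest line was 0.80 on the log2(TPM + 1) scale, below 2-fold. In every library SMARCB1 lay between the 57.7th and the 68.0th percentile of genes above 0 TPM in some library. Of its core partners, SMARCC1 exceeded it 6.56-fold (CHLA 02), 3.86-fold (CHLA 04), 6.65-fold (CHLA 05) and 5.09-fold (CHLA 06). SMARCE1 exceeded it 4.86-fold to 10.1-fold. Not all core genes did, with SMARCD2 at 22.2 TPM in CHLA 04 and BCL7A at 12.6 TPM in CHLA 06. A level of RNA says nothing of whether the protein is made, and the files give no reads per exon.

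The 7 SMARCB1 transcripts in the files split at exon 2, whose end differs between the known isoforms. Of these, 3 use the longer exon, 2 the shorter, and 2 retained-intron transcripts (GENCODE 44) hold neither. The exon is shown because the split rests on its last 27 bases, in capitals, which are read only in the longer form.
SMARCB1 exon 2, GRCh38 chr22:23791756-23791894, plus strand: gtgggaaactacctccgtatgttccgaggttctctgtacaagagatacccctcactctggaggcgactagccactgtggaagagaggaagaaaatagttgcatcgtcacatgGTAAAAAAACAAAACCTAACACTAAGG
The shorter exon ends at position 23791867 of chromosome 22 and has 112 of the 139 bases. Transcripts with the longer exon stood at 6.22, 7.81, 5.60, 7.67, 11.0 and 10.3 TPM. Transcripts with the shorter exon stood at 5.27, 5.36, 8.41, 2.47, 4.13 and 4.33 TPM. Both forms were thus present in all 6 libraries, and CHLA 06 held the most of the longer one. The longer form had 44.3% of the reads given to either form in CHLA 02 (47 reads against 59, interval 35.2 to 53.8), 54.8% and 33.6% in the CHLA 04 replicates, 69.7% in CHLA 05 (interval 59.5 to 78.2) and 70.1% and 68.0% in those of CHLA 06. The replicates of CHLA 04 differed by more than their intervals (44.1 to 65.0 and 26.4 to 41.6). Reads given to an isoform depend on how the mapping program divides reads that fit several transcripts, and this was not tested.

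The 2 retained-intron transcripts were highest in CHLA 04. They stood at 1.96 TPM in CHLA 02, at 13.0 and 8.14 TPM in the CHLA 04 replicates, at 6.16 TPM in CHLA 05, and at 2.14 and 1.55 TPM in those of CHLA 06. The 5 protein-coding transcripts summed to 11.5, 13.2, 14.0, 10.1, 15.1 and 14.7 TPM, so that CHLA 04 no longer stood above CHLA 06, although it stayed above CHLA 02 and CHLA 05. The protein-coding share was 50.3% and 63.2% in CHLA 04 and 87.6% and 90.5% in CHLA 06. The transcript ENST00000263121, with 9 exons and the longer exon 2, was at 7.11 and 7.41 TPM in CHLA 06 and at 1.59 to 4.62 TPM in the other libraries. Of 55 other genes within 500 kb of SMARCB1, 22 were at 1 TPM or more in a line and 15 in every line, among them the neighbour MMP11 at 12.4 to 22.7 TPM by line. The gene held 1 LTR element, with 0 reads in every library.

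**Figure D3:**
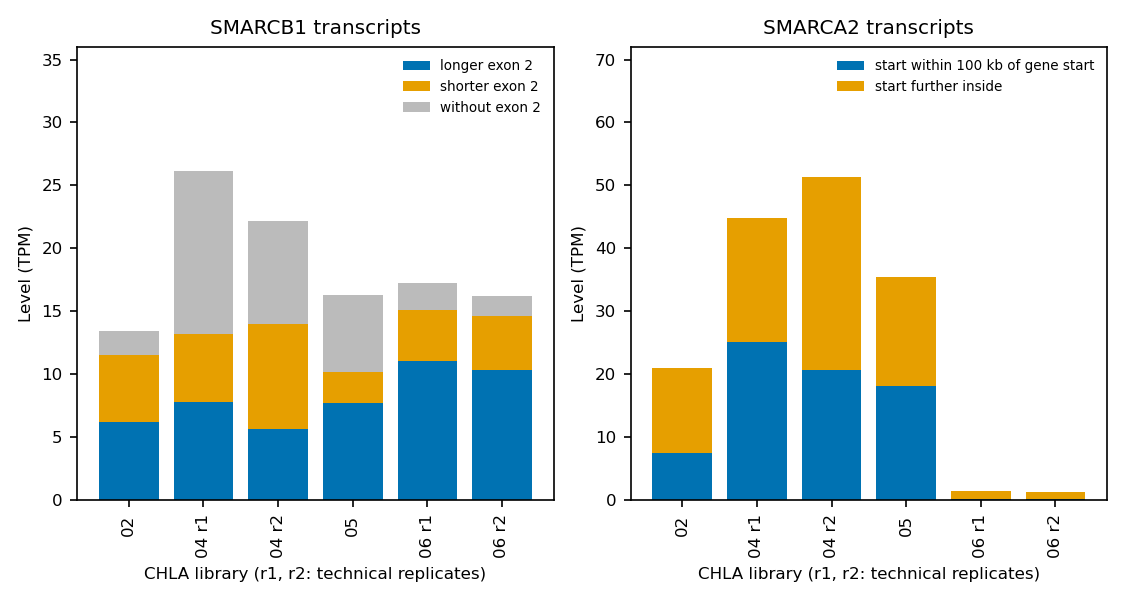
Left, SMARCB1 TPM in each library, split into transcripts with the longer exon 2, the shorter exon 2 and neither. Right, SMARCA2 TPM split into the 8 transcripts that start within 100 kb of the gene's start and the 9 that start further inside. Bars start at 0 and carry no error. The grey part of SMARCB1 is tallest in CHLA 04 replicate 1 at 13.0 TPM, and SMARCA2 is at most 1.36 TPM in both CHLA 06 bars.

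The ATPase genes showed the widest contrast among the core machinery. SMARCA2 stood at 20.9, 44.8, 51.4, 35.4, 1.36 and 1.23 TPM. Both CHLA 06 libraries were far below all others, with 20 and 22 reads (intervals 0.881 to 2.10 and 0.812 to 1.86 TPM). CHLA 04 at 48.1 ± 4.67 TPM exceeded CHLA 06 at 1.30 ± 0.0924 TPM 37.1-fold, and even CHLA 02, the next lowest, exceeded CHLA 06 16.2-fold. SMARCA4 stood at 138, 342, 256, 212, 104 and 120 TPM. CHLA 04 at 299 ± 61.2 TPM was highest and CHLA 06 at 112 ± 10.7 TPM lowest, 2.67-fold apart, and the replicates did not overlap between lines. The ATPase genes therefore differed in the same order of lines, to very unequal extents. Within a library, SMARCA4 exceeded SMARCA2 by a log2 ratio of 2.72 in CHLA 02, with an interval of 2.54 to 2.89, and 2.59 in CHLA 05, with an interval of 2.46 to 2.71. The ratio was 2.63 ± 0.44 for CHLA 04 and 6.43 ± 0.24 for CHLA 06. Over all transcripts 3 lines thus lay within their error of each other, at 83.3% to 88.4% SMARCA4. In CHLA 06 SMARCA4 made up 98.7% and 99.0% of the ATPase TPM. With the most abundant transcript of each gene the ratio was 5.52 in CHLA 02, 4.59 in CHLA 04 and 4.04 in CHLA 05. That SMARCA2 transcript had only 4 reads in CHLA 02 and 17 in CHLA 05. It was at 0 TPM in CHLA 06, so no such ratio is given there. The summed ATPase level was lowest in CHLA 06, at 106 and 121 TPM, and highest in CHLA 04, at 387 and 307 TPM.

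Both kinds of SMARCA2 transcripts were low in CHLA 06. The 8 transcripts that start within 100 kb of the gene's start stood at 7.38, 25.1, 20.7, 18.1, 0.159 and 0.204 TPM. The 9 that start further inside stood at 13.6, 19.7, 30.7, 17.3, 1.20 and 1.03 TPM. CHLA 06 was below every other library in each class, and of its few reads 7 and 10 lay on the first class. The gene held 28 LTR elements, of which 3 had reads, each in an intron. They had 4, 4, 3, 2, 0 and 0 reads in all, too few to compare.

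The 3 members with the widest range, BCL11A, SMARCA2 and DPF1, were each lowest in CHLA 06, and their promoters are shown for that reason. The windows span 250 bases before to 50 after the RefSeq start (GRCh38.p14), 5′ to 3′ along the gene. Capitals mark 2 motifs on either strand, the GC box GGGCGG, which SP1-family factors bind, and the CCAAT box CCAAT, which NF-Y binds.
SMARCA2 promoter, chr9:2015097-2015396, plus strand: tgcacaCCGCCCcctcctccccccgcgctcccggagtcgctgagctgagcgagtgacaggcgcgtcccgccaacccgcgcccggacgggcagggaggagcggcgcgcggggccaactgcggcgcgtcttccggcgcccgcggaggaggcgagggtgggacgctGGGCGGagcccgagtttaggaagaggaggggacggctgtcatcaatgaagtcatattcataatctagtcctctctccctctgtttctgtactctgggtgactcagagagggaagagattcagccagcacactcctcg
BCL11A promoter, chr2:60553605-60553904, minus strand: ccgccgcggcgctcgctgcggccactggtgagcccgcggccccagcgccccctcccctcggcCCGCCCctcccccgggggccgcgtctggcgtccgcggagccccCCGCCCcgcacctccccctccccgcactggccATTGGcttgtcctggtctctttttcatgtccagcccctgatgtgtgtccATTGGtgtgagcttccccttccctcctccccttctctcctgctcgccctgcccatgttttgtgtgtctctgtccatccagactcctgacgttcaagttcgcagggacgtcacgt
DPF1 promoter, chr19:38229646-38229945, minus strand: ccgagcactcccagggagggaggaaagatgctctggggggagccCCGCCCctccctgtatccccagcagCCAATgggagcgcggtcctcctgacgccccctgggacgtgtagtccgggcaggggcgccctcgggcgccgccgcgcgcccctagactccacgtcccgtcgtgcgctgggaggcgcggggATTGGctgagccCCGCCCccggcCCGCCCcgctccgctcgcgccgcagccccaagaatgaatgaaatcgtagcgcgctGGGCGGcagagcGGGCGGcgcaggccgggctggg
The SMARCA2 window held 2 GC boxes and 0 CCAAT boxes, the BCL11A window 2 and 2, and the DPF1 window 5 and 2. A promoter was found for 26 of the 30 members, those without one being SMARCC1, SMARCC2, ARID2 and ACTL6A, and the window nearest to the gene's 5′ end was used. A GC box stood in 23 of the 26 (88.5%), against 44.9% of all 34796 windows of the same length. A CCAAT box stood in 10 (38.5% against 34.6%), the E-box CACGTG, which MYC and related factors bind, in 3 (11.5% against 7.20%), and TATAAA in 1 (3.85% against 11.6%). The median window held 33.0 CpG dinucleotides, against 14.0 over all windows, and the lowest of the members held 17, in GLTSCR1L. SMARCA2 with 30 CpG, DPF1 with 36 and BCL11A with 25 lay in the range of the other members. SMARCA4 held the most, 55. A match is a description of the letters and no evidence that a factor binds.

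Marker genes of other kinds also differed in CHLA 06. The 3 astrocyte markers (GFAP, AQP4 and S100B), all past 2-fold, summed to 0.0601 and 0.417 TPM in CHLA 06 and to 58.0 to 209 TPM elsewhere, with S100B at 0 in CHLA 02 and CHLA 04. Of the 8 neuron markers 5 of 6 tested were past 2-fold, and they did not share an order of lines. MAP2 was at 5.41 and 7.20 TPM in CHLA 06 and at 298 to 915 TPM elsewhere, whereas TUBB3, not past 2-fold, was highest in CHLA 06 at 383 TPM against 205 to 264 TPM, and SYT1 at 6.39 TPM in CHLA 06 was above CHLA 04 at 2.43 TPM. MYC, of the AT/RT-MYC markers, was at 94.1 and 72.1 TPM in CHLA 06, at 79.7 TPM in CHLA 02 and at most 1.44 TPM in CHLA 04 and CHLA 05, while HOXB13 was at most 0.129 TPM. HOXC10, the other gene of that list, was past 2-fold with another order of lines. It was at 1.89 TPM in CHLA 02, 0.173 TPM in CHLA 04, 2.35 TPM in CHLA 05 and 2.02 TPM in CHLA 06. Their part in the levels of the subunits was not tested.

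Among the other core genes, the scaffold paralogs SMARCC1 (BAF155) and SMARCC2 (BAF170), which dimerize at the base of the complex, differed in range. SMARCC1 stood at 88.3, 89.1, 97.0, 108, 81.5 and 89.0 TPM, and its difference between lines of 0.34 on the log2(TPM + 1) scale was the smallest of the members. SMARCC2 stood at 149, 247, 201, 149, 106 and 102 TPM. CHLA 04 was highest and CHLA 06 lowest, 2.15-fold apart without overlap, while CHLA 02 and CHLA 05 coincided. The log2 ratio of SMARCC2 to SMARCC1 was 0.75 (CHLA 02), 1.26 ± 0.30 (CHLA 04), 0.46 (CHLA 05) and 0.29 ± 0.12 (CHLA 06), and it turned to between -1.46 and -0.53 when only the most abundant transcript of each gene was used. On protein-coding transcripts SMARCC2 stood at 66.8, 122, 92.2, 68.4, 54.6 and 53.9 TPM. SMARCC1 stood at 80.8, 80.0, 87.2, 97.0, 77.5 and 85.2 TPM on its own, above SMARCC2 in every line except CHLA 04. SMARCC2 overlaps MYL6, and how reads in the overlap were counted is not given in the sources used here.

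The SMARCD genes encode the BAF60 subunits, which link the complex to transcription factors. SMARCD1 stood at 107, 206, 183, 172, 81.7 and 83.7 TPM. CHLA 04 and CHLA 05 were high and CHLA 06 was lowest, with CHLA 04 2.35-fold above CHLA 06 and the replicates apart. SMARCD2 ran the other way, at 36.5, 25.9, 18.4, 24.4, 37.5 and 52.5 TPM, with CHLA 06 at 45.0 ± 10.6 TPM and CHLA 04 at 22.2 ± 5.29 TPM. SMARCD3, the form of muscle and neurons, stood at 131, 212, 99.2, 134, 113 and 94.4 TPM. Its CHLA 04 replicates were 2.14-fold apart, and all other libraries except CHLA 06 replicate 2 lay between them, so no order of lines can be read. SMARCD1 to SMARCD2 was 1.56 on the log2 scale (CHLA 02), 3.15 ± 0.23 (CHLA 04), 2.82 (CHLA 05) and 0.90 ± 0.32 (CHLA 06). With the most abundant transcript alone this ratio was -1.15 in CHLA 02 and -0.46 in CHLA 06. Over all transcripts SMARCD1 and SMARCD3 were close, with log2 ratios from -0.32 to 0.42 by line. On protein-coding transcripts SMARCD1 was above SMARCD3 in every library, at 68.8, 122, 130, 108, 57.6 and 55.3 TPM. SMARCD3 then stood at 58.0, 83.7, 33.9, 49.6, 49.4 and 45.5 TPM.

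SMARCE1 (BAF57), an HMG-box DNA-binding subunit, ranged from 105 TPM in CHLA 06 to 165 TPM in CHLA 05. The actin-like subunit of progenitors, ACTL6A, stood at 71.8, 68.2, 106, 112, 85.1 and 83.2 TPM, and the replicates of CHLA 04 spanned most of that range. Its neuronal counterpart ACTL6B had 0, 1, 3, 6, 0 and 0 reads, that is at most 0.641 TPM, and ACTL6A made up at least 99.4% of the set in every library. With 0 reads the upper limit of the interval was 0.661 TPM in CHLA 02 and 0.571 and 0.518 TPM in CHLA 06. The BCL7 genes encode small core subunits. BCL7A stood at 19.9, 36.8, 21.7, 38.7, 12.8 and 12.4 TPM. CHLA 06 was below all others and CHLA 05 exceeded it 3.07-fold, while CHLA 04 replicate 2 was near CHLA 02 and the CHLA 04 replicates were 1.70-fold apart. BCL7B stood at 32.0, 39.3, 46.1, 50.8, 43.9 and 42.2 TPM and BCL7C at 63.4, 84.9, 79.0, 64.2, 92.4 and 81.7 TPM, and neither passed 2-fold. BCL7A made up 8.60% and 9.07% of the BCL7 TPM in CHLA 06 and 14.8% to 25.2% elsewhere.

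The ARID1 genes, whose products define canonical BAF, were even. ARID1A stood at 149, 208, 165, 136, 146 and 135 TPM. ARID1B stood at 75.8, 86.4, 64.4, 93.0, 106 and 97.5 TPM. Neither passed 2-fold, and ARID1A exceeded ARID1B in every library. Their log2 ratio was 0.97 in CHLA 02 (interval 0.91 to 1.03), 1.31 ± 0.06 in CHLA 04, 0.55 in CHLA 05 (interval 0.49 to 0.60) and 0.46 ± 0.00 in CHLA 06, so that it separated CHLA 04 and CHLA 02 from the other lines beyond the replicate SD. With the most abundant transcript it was 2.15, 2.36, 1.71 and 1.74 in that order of lines.

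SS18, a subunit fused to SSX in synovial sarcoma, was the 1 member past 2-fold that was highest in CHLA 06, joined by SMARCD2 after either scaling. It stood at 128, 52.8, 76.9, 79.6, 189 and 167 TPM. CHLA 06 at 178 ± 15.3 TPM was 2.75-fold above CHLA 04 at 64.9 ± 17.0 TPM, CHLA 02 lay between them, and CHLA 04 and CHLA 05 could not be separated. Its neuronal paralog SS18L1 (CREST) stood at 24.1, 24.7, 26.2, 29.5, 16.9 and 16.3 TPM and was lowest in CHLA 06, without passing 2-fold. The log2 ratio of SS18 to SS18L1 was 2.41 (CHLA 02), 1.32 ± 0.32 (CHLA 04), 1.43 (CHLA 05) and 3.42 ± 0.09 (CHLA 06), the 2 genes thus moving apart. The SS18 transcript with the most TPM, ENST00000415083 with 11 exons, had the same order, at 92.8, 34.3, 52.5, 58.3, 123 and 113 TPM.

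The BAF45 subunits, plant homeodomain finger proteins that read histone tails, are DPF1, DPF2 and DPF3 in canonical BAF and PHF10 in PBAF. DPF2, the widely used form, stood at 56.2, 78.7, 83.9, 89.7, 63.5 and 61.6 TPM and did not pass 2-fold. DPF1, a neuronal form, stood at 13.1, 69.8, 65.4, 9.32, 3.41 and 6.33 TPM. CHLA 04 stood alone, 5.14-fold above CHLA 02 and 13.9-fold above CHLA 06, whose replicates were 1.85-fold apart on 46 and 89 reads. Over all transcripts DPF1 made up 36.1% and 30.6% of the set in CHLA 04 and 3.17% to 10.7% elsewhere. On protein-coding transcripts the CHLA 04 replicates held 42.4 and 39.5 TPM of DPF1 and 26.0 and 39.7 TPM of DPF2. In the other lines DPF2 was above DPF1 on such transcripts. DPF3 had 2, 2, 4, 32, 1 and 1 reads and was at 2.46 TPM in CHLA 05 (interval 1.74 to 3.48) and at most 0.150 TPM elsewhere. CHLA 05 was thus the 1 line with DPF3 RNA clearly above the counting limit, and with 1 read in each CHLA 06 library no fold is given. Of the CHLA 05 level, 10.9% (0.269 TPM) lay on the 1 transcript typed as protein-coding. That transcript was at 0 TPM in the other libraries, and 14 of the 16 DPF3 transcripts had a type. LTR elements in introns of DPF3 had 12 reads in CHLA 05 and at most 1 in any other library. PHF10 stood at 53.1, 45.0, 64.4, 101, 40.6 and 52.5 TPM. CHLA 05 was highest, 1.86-fold above CHLA 04 and 2.18-fold above CHLA 06, and the other lines overlapped. PHF10 shares its locus with C6orf120, with which reads may be shared.

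The zinc finger factors BCL11A and BCL11B, DNA-binding subunits of BAF in brain and blood, differed in range, BCL11A having the widest of the members. It stood at 28.9, 55.6, 43.7, 3.72, 0.157 and 0.178 TPM, from 744, 935, 1154, 82, 6 and 6 reads. CHLA 04 and CHLA 02 were high, CHLA 04 exceeded CHLA 05 13.4-fold, and CHLA 06 was at the counting limit (intervals 0.0718 to 0.342 and 0.0814 to 0.387 TPM). CHLA 04 exceeded CHLA 06 by 5.44 on the log2(TPM + 1) scale. The transcript with the most TPM, ENST00000335712 with 4 exons, followed the gene, at 15.7, 29.2, 22.5, 1.65, 0.109 and 0.0788 TPM. BCL11B was low everywhere, at 0.409, 1.27, 0.649, 0.701, 0.236 and 0.321 TPM, from 10 to 34 reads a library. It exceeded BCL11A in the CHLA 06 libraries alone, where both were low.

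Of the genes named at the start as defining PBAF or non-canonical BAF, PHF10 alone passed 2-fold. The ATPase and core genes, which these assemblies also draw on, are described above and are not counted here. PBRM1, a subunit with a row of bromodomains, ranged from 90.5 TPM in CHLA 02 to 136 TPM in CHLA 05, and ARID2 from 44.8 TPM in CHLA 04 to 65.7 TPM in CHLA 06. BRD7, the bromodomain subunit of PBAF, stood at 58.0, 70.4, 87.2, 67.0, 53.8 and 56.5 TPM. BRD9, its counterpart in non-canonical BAF, stood at 46.4, 80.1, 74.6, 62.2, 43.6 and 44.7 TPM. The log2 ratio of BRD7 to BRD9 was 0.32 (CHLA 02), 0.02 ± 0.29 (CHLA 04), 0.11 (CHLA 05) and 0.32 ± 0.02 (CHLA 06), and 0.35 to 0.85 with the most abundant transcript. On protein-coding transcripts BRD7 was further above BRD9, at 52.1, 57.3, 74.3, 57.4, 49.3 and 51.9 TPM. BRD9 then stood at 18.0, 26.8, 31.4, 21.8, 19.3 and 18.0 TPM. GLTSCR1 (BICRA) stood at 11.4, 24.5, 21.1, 14.1, 13.1 and 11.3 TPM and its paralog GLTSCR1L (BICRAL) at 10.2, 5.91, 5.36, 10.9, 10.4 and 9.05 TPM. CHLA 04 had the most GLTSCR1 and the least GLTSCR1L, with no overlap with other lines in either. Neither gene passed 2-fold, yet their log2 ratio was 2.01 ± 0.05 in CHLA 04 and 0.17 (interval -0.07 to 0.40), 0.38 (interval 0.17 to 0.59) and 0.33 ± 0.01 in CHLA 02, CHLA 05 and CHLA 06. With the most abundant transcript it was 2.49 in CHLA 04 and 0.71 to 0.87 in the other lines.

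**Figure D4:**
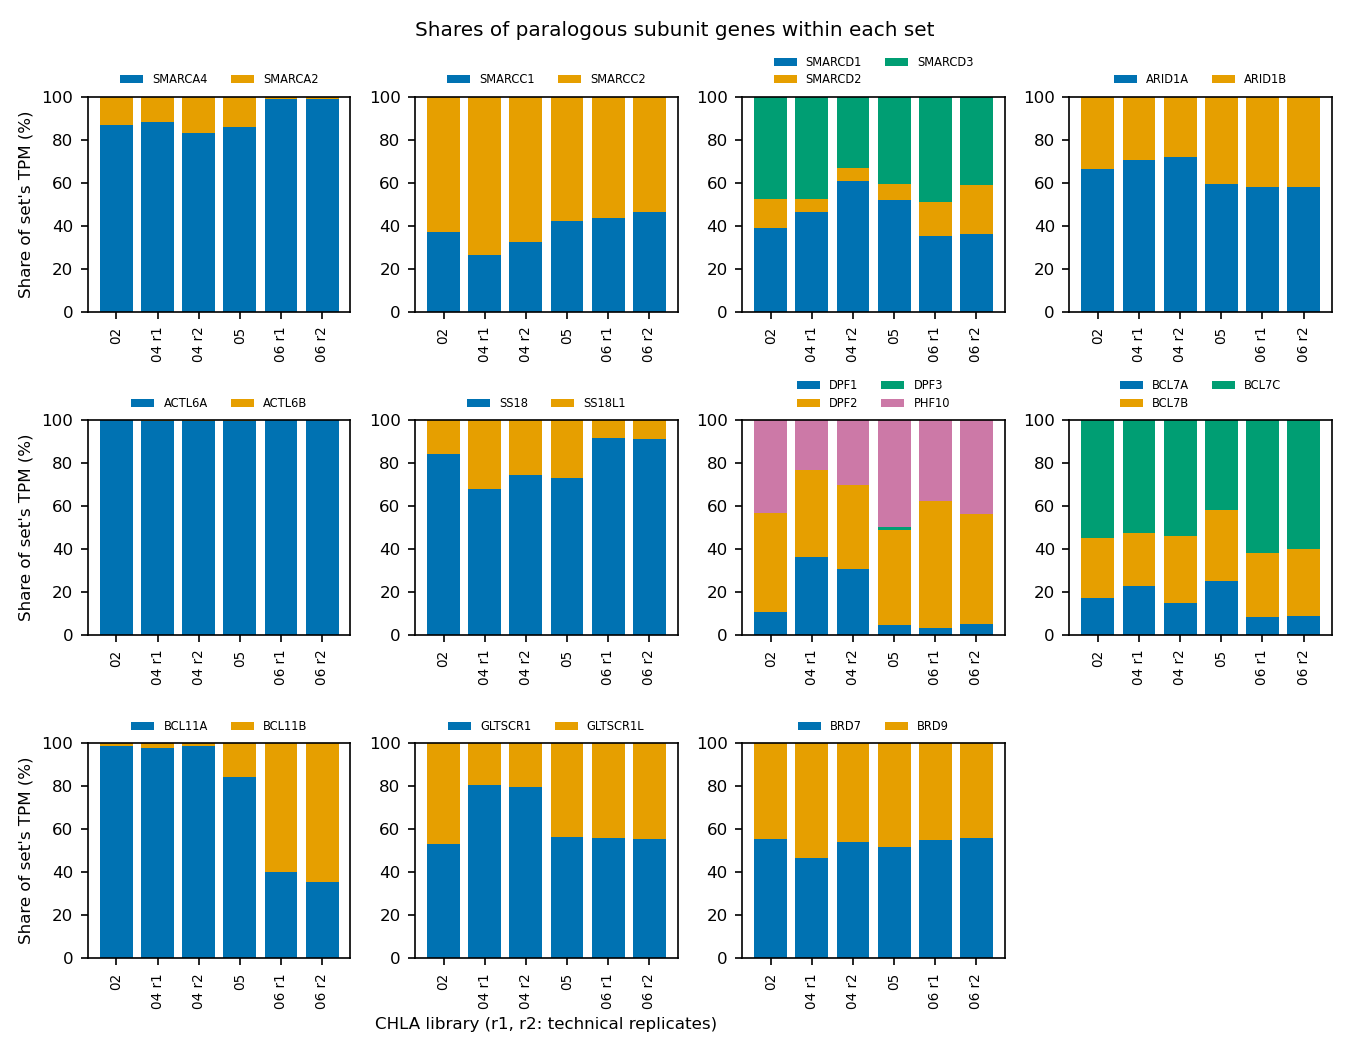
Share of each paralog in the summed TPM of its set (percent, vertical axis, bars fill to 100) in the 6 libraries, with r1 and r2 for technical replicates. SMARCA2 shrinks to 1.29% and 1.02% in CHLA 06, BCL11A falls from at least 97.8% in CHLA 02 and CHLA 04 to 39.9% and 35.6% in CHLA 06, and DPF1 is widest in CHLA 04.

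The 8 members past 2-fold between CHLA 04 and CHLA 06 also showed the intermediate place of CHLA 02. For all 8 the CHLA 02 level lay between those lines, at 13.2% of the way from CHLA 06 to CHLA 04 for DPF1, 13.8% for SMARCA4, 42.0% for SMARCA2, 44.1% for SS18 and 58.2% for BCL11A. This was near the 88.4% of all genes past 2-fold between those lines. CHLA 05 lay between them for 7 of the 8, against 64.7% of all such genes, at 7.18% for BCL11A and 72.9% for SMARCA2. BCL7A was the exception, higher in CHLA 05 than in either.

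Reads on LTR elements inside the genes were few. Of 246 elements in 23 members, 54 in 14 members had a read in some library, and 4 of those overlapped an exon. The most were in introns of ARID1B, with 32 to 105 reads a library, and in those of SMARCC1, with 37 to 64. The LTR values were scaled apart from the gene values, so they were not compared with the levels of the genes.

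Other families of remodelers were read against the same threshold. Of 27 tested genes of the ISWI, CHD and INO80 families 6 were past 2-fold (22.2%), namely BAZ1A, BAZ2B and CECR2 of ISWI and CHD5, CHD6 and CHD7 of the CHD family, and 0 of 9 INO80 genes, with SRCAP just below it. The median difference was 0.55 on the log2(TPM + 1) scale. CHD5, a neuronal remodeler, stood at 5.72, 25.4, 20.7, 1.52, 0.658 and 0.389 TPM, the order of lines seen for DPF1. No test compared these families with the SWI/SNF genes.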

How the data were processed

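RNA of 4 AT/RT cell lines was measured in 6 libraries of stranded total RNA, as paired-end reads of 125 bp. The authors trimmed the reads and mapped them to GRCh38 (Ensembl release 82) with the CLCbio Genomics Workbench under default parameters, whose version is not given in the sources used here. The submitters' processing notes name CASAVA 1.8.2, FastQC and Trimmomatic. The deposited values are TPM per transcript and, from a separate mapping, TPM per RepeatMasker LTR element. They were not log-transformed, quantile normalized or pooled by the authors, and the strand setting of the counting is not given in the sources used here. A gene overlapping another, as 18 of the 30 members do, may share reads with it.

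Transcript TPM was summed by gene and technical replicates were averaged. Reads were recovered as whole multiples (within 0.05) of the value of 1 read or read pair after multiplication by length, which held for at least 99.65% of transcript values above 0. The recovery and the 2-fold call were tested on simulated reads that held counting error only. Technical replicates differed by more than counting error, so the simulation does not show how the call behaves with that spread. Each line had 1 biological sample, so differences were described on the log2(TPM + 1) scale, among genes at 1 TPM or more in a line, beside the share of all genes past 2-fold. TPM ratios of paralogs were taken without a pseudocount, with approximate 95% intervals from counting error for lines with 1 library. The text accounts for all 30 members, with values in every library for SMARCB1, members past 2-fold and paralogous sets. The members, the lists of other remodelers and the marker lists were chosen with earlier results of these data known. The values of 1 marker list are not reported here. Transcript types were matched to GENCODE 44 for 333 of 341 transcripts. Promoters came from RefSeq (GRCh38.p14) and the exon from the GRCh38 genome sequence. Python 3.11.15, NumPy 2.4.6, pandas 2.3.3 and SciPy 1.17.1 were used. Alternatives tried were pseudocounts of 0.1, 1 and 2, a 1.5-fold threshold, no filter on low values, a detection threshold of 5 TPM, quantile-normalized log2(TPM + 2), median-ratio scaling, the most abundant transcript, the highest technical replicate, and leaving out each technical replicate. Leaving out each cell line was added after the data were seen.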

Additional observations from a re-analysis of the deposited data

How the results depend on the processing

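Of 334 values computed under other settings, 9 ratios changed direction, and 33 other paralog ratios moved beyond their spread with the same sign, 27 of them with the most abundant transcript, 4 with a pseudocount of 1 and 2 after quantile normalization. A further 20 values moved beyond the spread or 1.5 times the count, as follows. At a 1.5-fold threshold 20 members were past it between the highest and the lowest line, against 77.2% of all genes. CHLA 04 and CHLA 02 then differed at 12 members (42.9%, against 44.2% of all genes). CHLA 05 differed from CHLA 02 at 11 (39.3% against 43.6%) and from CHLA 04 at 6 (21.4% against 39.9%). CHLA 06 differed from CHLA 04 at 13 (46.4% against 56.3%) and from CHLA 05 at 12 (42.9% against 49.4%). With the most abundant transcript, CHLA 04 and CHLA 02 differed at 7 members (25.9%, against 23.9% of all genes). Without CHLA 06 the count between the highest and the lowest line was 5, against 39.5% of all genes. Leaving out 1 technical replicate gave 10 to 12 members between the highest and the lowest line, against 49.6% to 56.2% of all genes. For CHLA 04 and CHLA 02 it gave 2 to 5 (5 without CHLA 04 replicate 2), against 21.4% to 26.5%. For CHLA 06 and CHLA 04 it gave 7 to 9, against 33.5% to 39.9%.

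The log2 ratio of SMARCA4 to SMARCA2 with the most abundant transcript was 5.52 for CHLA 02, 4.59 for CHLA 04 and 4.04 for CHLA 05. For CHLA 06 the ratio was 6.15 after quantile normalization and 5.62 with a pseudocount of 1, and SMARCA4 stayed above SMARCA2 in each. By the most abundant transcript alone, SMARCB1 was at 1.73, 7.64, 4.31 and 1.84 TPM in CHLA 02, 04, 05 and 06, a retained-intron transcript. In CHLA 06 it was at 18.5 TPM after quantile normalization and at 18.2 TPM after median-ratio scaling.

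Ratios that changed direction were SMARCC2 to SMARCC1 (-1.31, -0.53, -1.46 and -1.33 in CHLA 02, 04, 05 and 06) and SMARCD1 to SMARCD2 (-1.15 in CHLA 02 and -0.46 in CHLA 06), each with the most abundant transcript. In CHLA 04, SMARCD1 to SMARCD3 was -0.043 with the highest technical replicate and without replicate 2 (0.89 without replicate 1), and BRD7 to BRD9 was -0.19 without replicate 2 (0.23 without replicate 1). The cause was not tested beyond the construction of each setting.

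No paired analysis was possible because no test was made between lines and the replicate numbers mark technical replicates of 1 sample. Depth limits ACTL6B, DPF3 and the CHLA 06 values of BCL11A and SMARCA2, which rest on at most 32 reads a library.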

Other observations

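Of the genes beside SMARCB1 on chromosome 22, some differed more between lines than SMARCB1 and others, such as DDT at 57.0 to 77.9 TPM and CABIN1 at 87.0 to 118 TPM, differed less. MIF, a secreted cytokine gene that starts 107041 bases from the start of SMARCB1, stood at 191 TPM in CHLA 02, 16.1 TPM in CHLA 04, 149 TPM in CHLA 05 and 323 TPM in CHLA 06. The pseudogene ZDHHC8P1 stood at 95.9 TPM in CHLA 02 and 124 TPM in CHLA 06 and at most 0.874 TPM in CHLA 04 and CHLA 05. CHCHD10, a mitochondrial gene, stood at 168 TPM in CHLA 02, 105 TPM in CHLA 04, 28.7 TPM in CHLA 05 and 168 TPM in CHLA 06. Of the 22 neighbours at 1 TPM or more in a line, 13 were past 2-fold between the highest and the lowest line (59.1%), against 51.3% of all genes tested. Of the other remodelers, CHD7, the gene mutated in CHARGE syndrome, stood at 141 TPM in CHLA 05 and between 26.1 and 41.9 TPM in the other lines. These genes were described after their values were seen.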
